A study of Schizosaccharomyces pombe with 6 samples.

Results

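The newly made RNA of 10 genes of glycolysis and alcoholic fermentation was followed in the fission yeast Schizosaccharomyces pombe during depletion of Spt5, an elongation factor of RNA polymerase II. The genes were fba1, tpi1, tdh1, gpd3, pgk1, gpm1, eno101, pyk1, pdc101 and adh1, and each was matched by its PomBase identifier to a transcription unit in a table deposited by the authors. All 10 were found, in 10 of the 5484 units of that table, 4652 of which hold at least 1 identified gene. The 6 libraries fall into 3 time points with 2 biological replicates each: 0 h, before treatment, and 2.5 h and 4.5 h after the culture received thiamine and NAA, a synthetic auxin. At each harvest the cells took up 4-thiouracil (5 mM, 10 min), and the RNA that had incorporated it was purified and sequenced. All 6 libraries came from 1 strain, ASP167, a haploid of mating type h- carrying ura4-D18 and grown in minimal medium. Its spt5 is driven by the thiamine-repressible promoter Pnmt81 and encodes a protein with a V5-IAA17 degron. At its ade6 locus it makes the auxin receptor fusions skp1-OsTIR1 and skp1-AtTIR1-2NLS-9myc from Padh15, a promoter derived from that of adh1, so that every time point carries these alleles. The series has no culture given the drugs without the degron and none grown for the same time without the drugs, so the effects of losing Spt5, of the drugs and of growth over these hours cannot be told apart.

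Glycolysis splits glucose into pyruvate and yields ATP. In the stretch covered here, aldolase (fba1) cleaves fructose 1,6-bisphosphate, triose phosphate isomerase (tpi1) interconverts the products, glyceraldehyde 3-phosphate dehydrogenase (tdh1 and its close copy gpd3) makes NADH, and phosphoglycerate kinase (pgk1), phosphoglycerate mutase (gpm1), enolase (eno101) and pyruvate kinase (pyk1) lead to pyruvate. Pyruvate decarboxylase (pdc101) and alcohol dehydrogenase (adh1) then turn pyruvate into ethanol and give back NAD+, which lets yeast ferment glucose even in air. The mRNAs of these enzymes are among the most abundant and most stable in yeast cells.

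The authors' deposited table gives a half-life for each unit without a time unit, so it was used here to rank units. The half-life scores of the 10 units had a median of 60.59, against 12.27 over the 4457 coding units with a score. They ran from 34.9 for eno101 to 116.76 for tdh1, and ranked between the 89.7 percentile (eno101) and the 99.8 percentile (tdh1) of coding units. The table lists 0 introns for 9 of the 10 units. The exception is gpd3, with 1 intron in a 5′ leader of 1384 bases, and its synthesis time ranked at the 93.0 percentile of coding units, while the other 9 units ranked between the 0.875 and 39.5 percentiles. In 3 cases the unit spans further genes, so its counts are not those of the enzyme alone. The tdh1 unit (II:2805332-2809037, plus strand, ASM294v2) also holds SPNCRNA.1550, the gpm1 unit (I:5170433-5175548, minus strand) also holds mug106, SPAC26F1.07 and SPNCRNA.1055, and the tpi1 unit (III:937659-944561, plus strand) also holds SPCC24B10.20 and pog1. The gpd3 unit (II:577347-580058, plus strand), the adh1 unit (III:1590563-1593033, plus strand) and the pdc101 unit (I:101707-103963, minus strand) hold 1 gene each, as do the units of fba1, pgk1, eno101 and pyk1.

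The promoters of 4 genes that the values below turn on are shown from the RefSeq assembly ASM294v3, whose annotation set the gene starts. They are tdh1, its copy gpd3, and the fermentation pair pdc101 and adh1. Each runs from 250 bases before to 50 bases after the gene start, 5′ to 3′ on the gene's strand. Capitals mark TATAAA, the TATA box core that positions the start of transcription, and CTTCC or its reverse complement GGAAG, the core of the Gcr1 site in glycolytic promoters of the budding yeast Saccharomyces cerevisiae. The coordinates are II:2807345-2807644 (plus strand) for tdh1, II:577867-578166 (plus) for gpd3, I:103548-103847 (minus) for pdc101 and III:1591042-1591341 (plus) for adh1.
tdh1: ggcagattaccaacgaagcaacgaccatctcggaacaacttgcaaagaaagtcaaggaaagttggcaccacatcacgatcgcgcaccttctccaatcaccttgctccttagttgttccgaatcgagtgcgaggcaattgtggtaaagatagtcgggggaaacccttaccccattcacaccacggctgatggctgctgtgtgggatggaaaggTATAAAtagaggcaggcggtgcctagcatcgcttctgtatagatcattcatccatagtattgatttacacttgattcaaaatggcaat
gpd3: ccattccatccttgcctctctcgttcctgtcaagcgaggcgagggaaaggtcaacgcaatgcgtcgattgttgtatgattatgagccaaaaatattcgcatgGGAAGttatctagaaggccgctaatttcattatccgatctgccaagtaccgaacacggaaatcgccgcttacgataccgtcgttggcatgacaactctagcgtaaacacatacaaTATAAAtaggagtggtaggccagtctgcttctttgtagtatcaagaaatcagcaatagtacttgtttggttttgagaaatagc
pdc101: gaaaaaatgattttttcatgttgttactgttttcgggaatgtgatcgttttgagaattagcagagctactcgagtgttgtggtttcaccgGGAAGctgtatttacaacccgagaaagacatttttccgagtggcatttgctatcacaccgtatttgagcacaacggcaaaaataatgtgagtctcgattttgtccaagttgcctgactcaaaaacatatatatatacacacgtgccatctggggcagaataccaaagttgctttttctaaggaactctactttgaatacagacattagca
adh1: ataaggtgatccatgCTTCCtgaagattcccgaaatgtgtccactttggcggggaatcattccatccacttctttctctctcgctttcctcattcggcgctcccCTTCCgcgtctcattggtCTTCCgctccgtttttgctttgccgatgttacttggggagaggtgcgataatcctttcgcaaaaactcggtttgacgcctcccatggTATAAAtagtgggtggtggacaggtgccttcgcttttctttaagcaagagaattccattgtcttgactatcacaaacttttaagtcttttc
CTTCC was present on either strand in 9 of the 10 promoters, all but that of tdh1, and in 34.3% of the 5112 promoters of the same length. TATAAA was present on either strand in 6 of the 10 and in 48.1% of all. On the gene's strand and counted from the gene start as 0, TATAAA began at -38 in tdh1, -33 in gpd3, -40 in pgk1, -32 in gpm1 and -41 in adh1. The window from -45 to -25 thus held it in 5 of the 10 promoters and in 4.79% of all. That window was chosen after the positions had been seen. CCAAT, the core of the site bound by the CCAAT-binding complex, was in 5 of the 10 promoters and 42.2% of all, and TGACGT, a core bound by factors of the Atf1 family, was in fba1 and pgk1 and 5.91% of all. In the authors' table the units of these 4 genes begin upstream of the windows shown, so the windows are promoters by the RefSeq gene starts and not by the starts of the units. These matches describe letters in a window and were not tested against the RNA values.

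How far tdh1 and gpd3 can be told apart by short reads bears on the values of both. Their coding sequences were identical at 940 of 1011 aligned positions (93.0%), with an unbroken identical run of 203 bases. Of the 50-base words of the coding sequence, 24.3% for tdh1 and 24.4% for gpd3 occur elsewhere in the genome, against 0 for the other 8 genes. How reads that map to several places were counted is not given in the sources used here, so part of the reads of either gene may have been lost or assigned to its copy. The stretch where the copies differ most, from II:2807702-2807821 in tdh1 and II:578796-578915 in gpd3 (both plus strand, ASM294v3), is shown with the differing bases in capitals.
tdh1 coding stretch: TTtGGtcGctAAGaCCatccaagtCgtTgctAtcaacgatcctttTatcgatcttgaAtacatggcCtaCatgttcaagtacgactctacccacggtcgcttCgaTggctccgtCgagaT
gpd3 coding stretch: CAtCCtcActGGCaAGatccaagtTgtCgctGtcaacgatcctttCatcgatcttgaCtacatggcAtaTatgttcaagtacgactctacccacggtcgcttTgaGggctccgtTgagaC

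In depth the libraries held 29268534 and 35673601 counts at 0 h, 17794017 and 11525663 at 2.5 h, and 13598877 and 14559076 at 4.5 h. All 10 units were among the 5208 tested. The depleted gene itself, spt5, had 1045 and 721 normalised CPM at 0 h, 121 and 108 at 2.5 h, and 98.2 and 92.3 at 4.5 h. Normalised CPM are the deposited counts scaled to library sizes adjusted by TMM. The 0 h libraries stood apart from each other: 562 of the tested units (10.8%) had values at least 2-fold apart, against 63 units between the 2.5 h libraries and 34 between the 4.5 h libraries. Fold changes of the 10 units against 0 h are therefore given with both 0 h libraries and with each alone, and those of other units with both unless a 0 h library is named.

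The 10 units together took 5.90% of all counts in 0 h replicate 1 and 1.12% in 0 h replicate 2. They took 4.50% and 3.04% at 2.5 h, and 3.34% and 4.14% at 4.5 h. The 95% Wilson intervals of these shares, which cover counting error only, were at most 0.0205 percentage points wide. Every treated library thus lay between the 0 h libraries, which were the highest and the lowest of the 6. The mean share was 3.77 ± 1.03% at 2.5 h and 3.74 ± 0.565% at 4.5 h, against 3.51 ± 3.38% at 0 h (SD, n = 2 each), with an exact two-sided permutation p of 1 for each comparison. The smallest p this design allows is 0.333. Fewer transcripts made and less labelled RNA recovered per cell cannot be told apart in such bulk libraries.

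**Figure D1:**
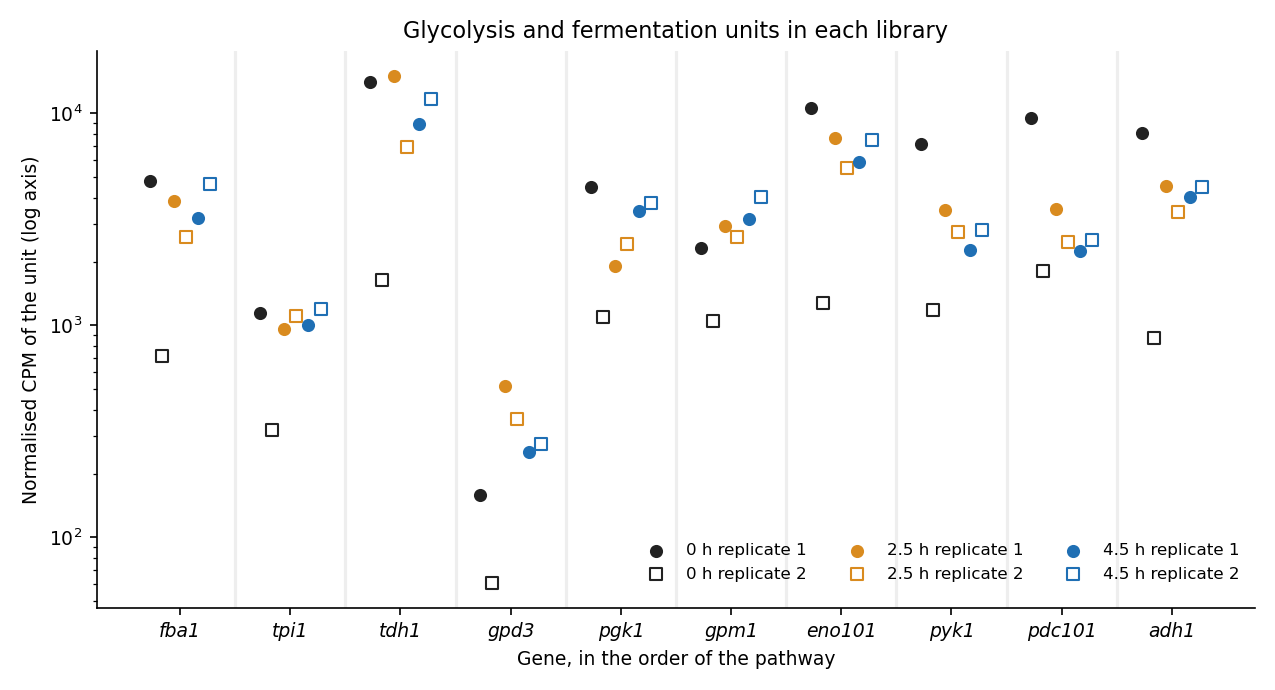
Normalised CPM of each unit (log axis) in each library, with genes in pathway order, colours for time points and filled circles or open squares for replicates 1 and 2. The open black square, 0 h replicate 2, is the lowest point of every gene, and 0 h replicate 1 is the highest for fba1, pgk1, eno101, pyk1, pdc101 and adh1.

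Per kilobase of exonic unit length, the enolase (eno101) unit had the highest values. Its median over the 6 libraries was 4389 CPM per kb (973 to 6851), and it ranked first of the 10 units in each library. Aldolase (fba1) followed at 2762 CPM per kb (628 to 3582), then tdh1 at 2689 (493 to 4099), adh1 at 1662 (396 to 3083), pgk1 at 1502 (633 to 2187), pyk1 at 1406 (680 to 3463) and pdc101 at 1092 (892 to 4003). Below enolase, the ranges of these 6 units overlap, so their order by median is not separated by the spread between libraries. The gpm1 unit, at 548 CPM per kb (229 to 762), lay above the tpi1 unit, at 149 (52 to 166), in all libraries. The lowest median was that of gpd3, at 118 CPM per kb (32 to 241), and it overlapped tpi1. The levels of tdh1, gpm1 and tpi1 are averages over units that hold other genes as well. The tdh1 unit is 3706 bases long, with a coding sequence of 1011 bases. Its raw counts were above those of the eno101 unit in every library (387872 and 294966 in 0 h replicate 1). Which of these enzymes had more RNA therefore cannot be read from the values per kb.

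The 0 h libraries differed at every step of the pathway. For adh1, the normalised CPM were 8064 in replicate 1 and 877 in replicate 2 of 0 h, a log2 difference of 3.20. For tdh1 they were 14030 and 1636 (3.10), for eno101 10669 and 1282 (3.06), and for fba1 4828 and 716 (2.75). The gap was smaller for pyk1 (7146 and 1187, log2 difference 2.59), pdc101 (9566 and 1804, 2.41), pgk1 (4483 and 1097, 2.03) and tpi1 (1143 and 320, 1.84). It was smallest for gpd3 (159 and 61.3, 1.38) and gpm1 (2330 and 1048, 1.15). So replicate 1 was higher for each of the 10, by 2.22-fold for gpm1 to 9.2-fold for adh1. All 10 units exceeded 2-fold, as did 506 of 4398 other coding units. The median log2 gap of the 10 was 2.50 between the 0 h libraries, 0.44 between the 2.5 h libraries and -0.28 between the 4.5 h libraries, where the other coding units had 0.05, 0.01 and -0.01. These gaps compare 1 library with 1 library and have no test.

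The same 0 h gap ran with the deposited half-life over all coding units. The other coding units were sorted by half-life score into 10 bins of 432 to 442 units. The median log2 gap was -0.35 in the bin with the lowest scores, 0.09 in bin 6, 0.58 in bin 9 and 1.36 in the bin with the highest scores. Of the 10 genes, adh1, tdh1, eno101, fba1, pyk1, pdc101, pgk1, tpi1 and gpd3 had gaps above the median of that last bin, and gpm1 lay below it. The score of eno101, 34.9, belongs to bin 9 (24.49 to 35.79), and its gap lay above the median of that bin as well. The part that this relation has in the changes from 0 h was not tested.

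**Figure D2:**
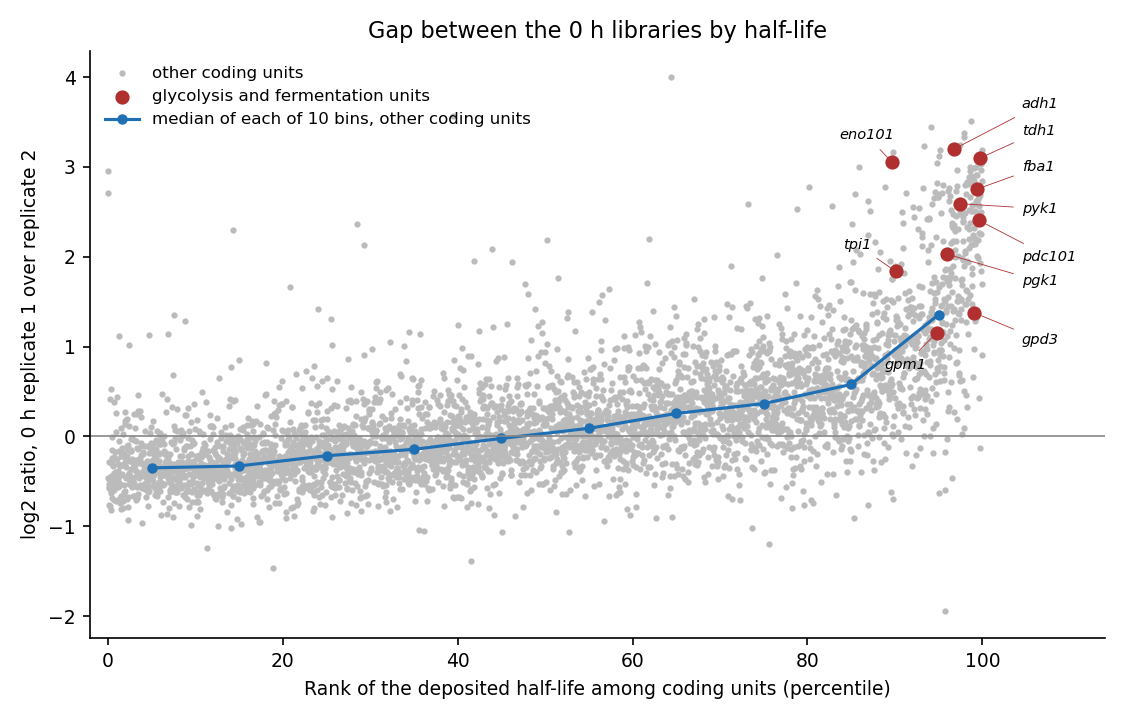
The log2 ratio of 0 h replicate 1 over 0 h replicate 2 for each coding unit against the percentile of its deposited half-life score, with the 10 genes in red and the medians of 10 bins of the other coding units in blue. The medians climb from -0.35 to 1.36, and the 10 genes lie at the right edge between 1.15 (gpm1) and 3.20 (adh1).

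At 2.5 h the test called 1 of the 10 units, the GAPDH copy gpd3, and it was higher. The gpd3 unit had 516 and 361 normalised CPM at 2.5 h, against 159 and 61.3 at 0 h. Both 2.5 h libraries lay above both 0 h libraries. This was a log2 fold change of 1.99 (SE 0.48) with an adjusted p of 0.0474 in edgeR's quasi-likelihood test over 5208 units. Of all tested units 17.4% were called at 2.5 h, 12.3% higher and 5.11% lower, so 1 of 10 is near the background. DESeq2 also called 1 of the 10, where it called 22.5% of all units. The gpd3 call was lost when either 2.5 h library was left out (log2 1.70 without replicate 1 and 2.22 without replicate 2). It was also lost without either 4.5 h library, where the log2 fold change was 1.98. Each of those fits called a smaller share of all units than the fit to all 6 libraries. The losses thus cannot be read as particular to gpd3. Over all alternatives the log2 fold change of gpd3 ranged from 1.46 to 2.73, always positive. Because gpd3 shares long identical stretches with tdh1, its counts may include reads of that copy. There were 3.44 and 5.22 gpd3 counts per 100 tdh1 counts at 2.5 h, against 1.13 and 3.75 at 0 h. On this ratio the time points overlap, and the 4.5 h values, 2.84 and 2.36, lay between those of 0 h.

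The other 9 units were not called at 2.5 h, and their log2 fold changes ran from -0.92 for pdc101 (SE 0.77, adjusted p = 0.465, edgeR) to 0.72 for gpm1 (SE 0.39, adjusted p = 0.25). The values of tdh1 (log2 0.49, SE 1.00) and fba1 (log2 0.22, SE 0.87) were smaller than their standard errors. The median over the 10 units was 0.18, beside 0.01 over all tested units. For pdc101, the normalised CPM were 3534 and 2477 at 2.5 h, against 9566 and 1804 at 0 h. For gpm1 they were 2942 and 2610 at 2.5 h, against 2330 and 1048 at 0 h. The pdc101 values at 2.5 h lay between its 0 h values, and those of gpm1 lay above both.

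Which 0 h library served as baseline decided the direction for most of the enzymes. Against 0 h replicate 2 alone, 9 of the 10 units were called higher and none lower, with a median log2 fold change of 1.83, from 0.63 for pdc101 (adjusted p = 0.0536, the 1 not called) to 2.73 for gpd3. In that fit 42% of all units were called, 22.2% higher and 19.8% lower. Against 0 h replicate 1 alone, gpd3 was called higher (1.46, adjusted p = 0.00315), and pgk1 (-1.05), pyk1 (-1.19), adh1 (-1.03) and pdc101 (-1.68, adjusted p = 0.0019) were called lower. The median of the 10 was then -0.64, with 41% of all units called, 20.6% higher and 20.4% lower. Of the 10 units, gpd3 and gpm1 had positive log2 fold changes under both baselines. A fit with 1 baseline library takes the spread of that time point from the other time points, whose libraries differed less.

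At 4.5 h none of the 10 units was called by edgeR, where 17.9% of all tested units were, 10.1% higher and 7.8% lower. An unadjusted p under 0.05 was seen for 2 units, and DESeq2 called gpd3 and gpm1 higher, where it called 23.8% of all units. The gpm1 unit had 3193 and 4051 normalised CPM at 4.5 h, against 2330 and 1048 at 0 h (log2 1.10, SE 0.39, adjusted p = 0.102 by edgeR and 0.0294 by DESeq2). The gpd3 unit had 254 and 277 normalised CPM at 4.5 h, against 159 and 61.3 at 0 h (log2 1.27, SE 0.47, adjusted p = 0.127 by edgeR and 0.0257 by DESeq2). In both units the 4.5 h libraries lay above both 0 h libraries. At the other end, pdc101 had 2253 and 2529 normalised CPM at 4.5 h, against 9566 and 1804 at 0 h, and was not called (log2 -1.25, SE 0.78, adjusted p = 0.323, edgeR). Pyruvate kinase (pyk1) had 2260 and 2806 normalised CPM at 4.5 h, against 7146 and 1187 at 0 h (log2 -0.72, adjusted p = 0.585). For both genes the 4.5 h values lay between the 0 h values. The remaining 6 units had log2 fold changes between -0.07 (adh1) and 0.59 (tpi1), and the median of the 10 was 0.39, beside 0.02 over all tested units.

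The baseline again set the direction at 4.5 h. Against 0 h replicate 2 alone, 9 of the 10 were called higher, with log2 fold changes of 0.99 (pyk1) to 2.55 (tdh1), and pdc101 was not called (0.30, adjusted p = 0.301). The background in that fit was 41.5%, with 20.9% higher and 20.6% lower. Against 0 h replicate 1 alone, gpd3 (0.74) and gpm1 (0.64) were called higher and pyk1 (-1.49), adh1 (-0.91) and pdc101 (-1.99, adjusted p = 0.00102) lower, with a background of 40.4%, 19.8% higher and 20.6% lower. The comparisons at 2.5 h and 4.5 h share the 0 h libraries and are not independent.

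**Figure D3:**
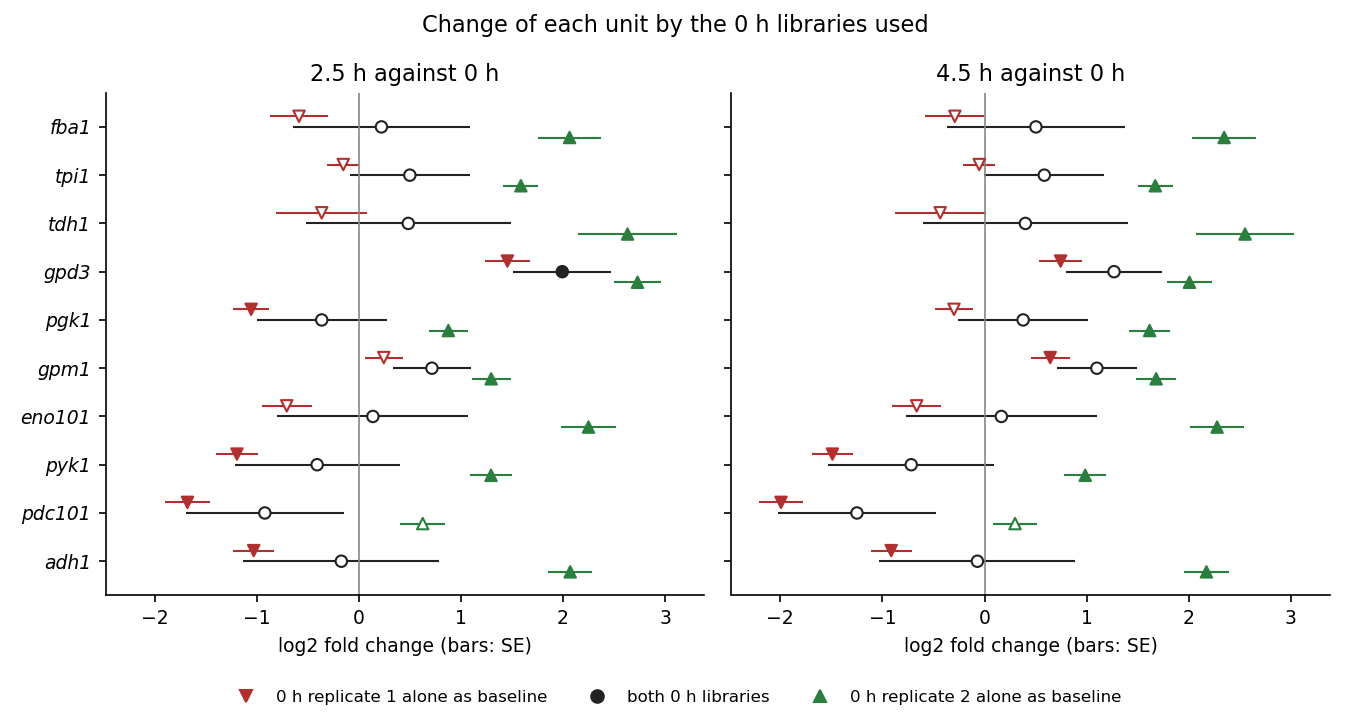
Log2 fold changes of the 10 units at 2.5 h and 4.5 h against 0 h (bars, SE) with 0 h replicate 1 alone, both 0 h libraries or 0 h replicate 2 alone as baseline, filled where the edgeR adjusted p was under 0.05. With both libraries only gpd3 at 2.5 h is filled, and for 8 genes at 2.5 h the red and green markers lie on opposite sides of 0.

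The fold change between 4.5 h and 2.5 h does not rest on 0 h. The spread in its test came from all 6 libraries, those of 0 h included. In this comparison none of the 10 units was called by edgeR, where 10.3% of all tested units were, 3.34% higher and 6.91% lower. An unadjusted p under 0.05 was seen for 0 units, and DESeq2 called none, where it called 17.7% of all units. The largest differences were those of pgk1 and gpd3. For pgk1 the normalised CPM were 3482 and 3769 at 4.5 h, against 1911 and 2431 at 2.5 h (log2 0.74, adjusted p = 0.492). For gpd3 they were 254 and 277 at 4.5 h, against 516 and 361 at 2.5 h (log2 -0.72, adjusted p = 0.352). In both, and in gpm1 (2942 and 2610 at 2.5 h, 3193 and 4051 at 4.5 h), the time points did not overlap. How many of all units separate in this way was not counted, so nothing is read from it for pgk1 and gpd3. When only these 4 libraries were fitted, both were called, pgk1 higher and gpd3 lower, with 38.8% of all units called, and likewise when 0 h replicate 1 or 0 h replicate 2 was left out (38.3% and 38.4% of all units called). The other 8 units ranged from -0.33 for pdc101 to 0.38 for gpm1, and the median of the 10 was 0.06, beside -0.01 over all tested units.

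The make-up of the 10 units' summed counts does not depend on how the libraries are scaled, and here the 0 h libraries were closer to each other for several genes. Pyruvate decarboxylase took 15.3% and 18.0% of the summed counts at 0 h, 7.95% and 8.20% at 2.5 h, and 6.53% and 5.88% at 4.5 h. Pyruvate kinase took 11.4% and 11.8% at 0 h, 7.92% and 9.15% at 2.5 h, and 6.55% and 6.53% at 4.5 h. Both shares were lower in each of the 4 treated libraries than in either 0 h library. For pdc101 the mean share was 7.14 ± 1.12% in treated libraries (SD, n = 4) and 16.7 ± 1.89% at 0 h (SD, n = 2), and for pyk1 7.54 ± 1.26% in treated libraries and 11.6 ± 0.272% at 0 h.

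In 3 units the share was higher in every treated library than in either 0 h library. The tdh1 share was 22.5% and 16.3% at 0 h, 33.8% and 22.9% at 2.5 h, and 25.9% and 27.3% at 4.5 h. The fba1 share was 7.73% and 7.14% at 0 h, 8.71% and 8.61% at 2.5 h, and 9.34% and 10.8% at 4.5 h. The gpd3 share was 0.255% and 0.611% at 0 h, 1.16% and 1.19% at 2.5 h, and 0.736% and 0.644% at 4.5 h. For tdh1 the lower 2.5 h library stood just above the higher 0 h library, and for gpd3 the same held for the lower 4.5 h library. The shares of pgk1, gpm1, eno101, tpi1 and adh1 overlapped between treated and 0 h libraries.

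For the 5 units that did not overlap, the exact two-sided permutation p was 0.133, the smallest that 4 libraries against 2 can give (0.267 after Benjamini-Hochberg adjustment over the 10). As ratios to the same summed counts, 3.19% of 4832 other units with a mean count of at least 50 lay below both 0 h libraries in every treated library, and 1.43% lay above. Nothing is read from these percentages, since the summed counts, as a share of all counts, were highest and lowest in the 0 h libraries, so that a unit of steady CPM cannot separate on this ratio. The 10 shares add up to the whole, so they are not independent. The widest 95% Wilson interval of these shares was 0.278 percentage points. For the 2 fermentation enzymes there were 84.3 and 48.6 adh1 counts per 100 pdc101 counts at 0 h, 128 and 138 at 2.5 h, and 179 and 177 at 4.5 h. For the last glycolytic steps there were 67.0 and 92.6 pyk1 counts per 100 eno101 counts at 0 h, 46.1 and 49.98 at 2.5 h, and 38.5 and 37.3 at 4.5 h.

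**Figure D4:**
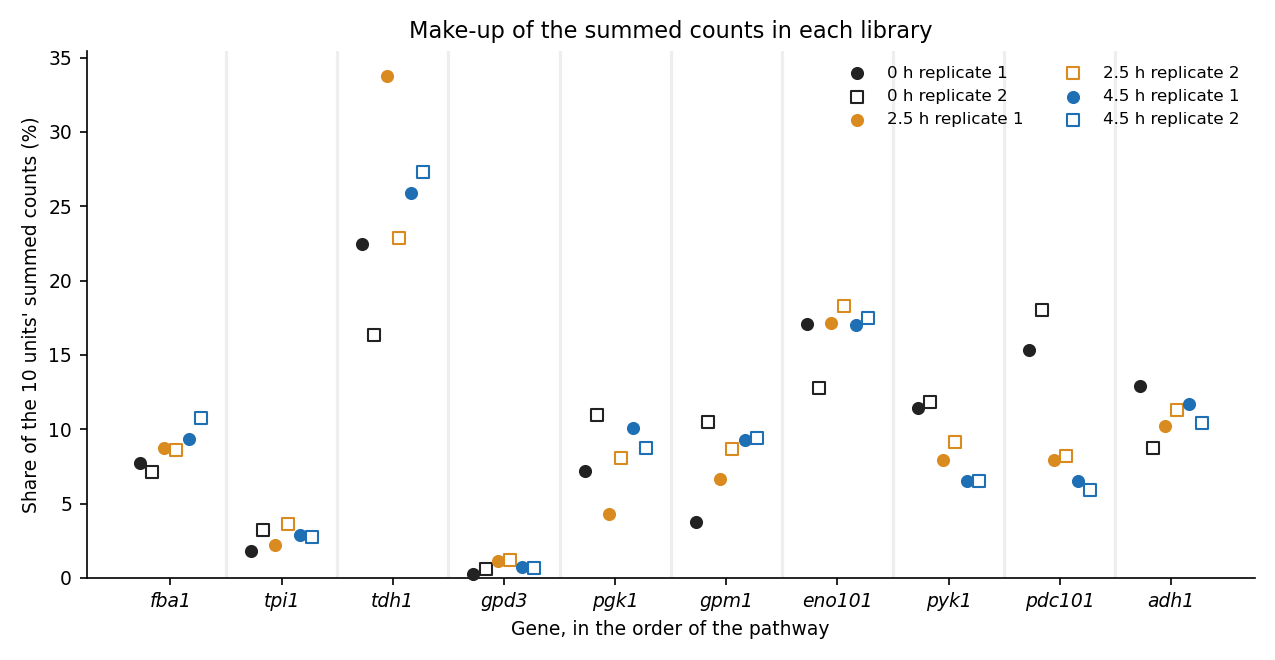
Share of each unit in the summed counts of the 10 units (percent) in each library, with genes in pathway order, colours for time points and filled circles or open squares for replicates 1 and 2. For pdc101 the 0 h points, at 15.3% and 18.0%, stand above all treated points, which lie between 5.88% and 8.20%, and for pyk1 the 0 h points also stand above.

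Outside the pathway, the 5 coding units whose log2 CPM over the 6 libraries followed the mean of the 10 most closely included rpl13 (r = 0.999), rtn1 (r = 0.997), srs1 (r = 0.995) and tef5 (r = 0.992), among 4406 candidates with a mean count of at least 50. The r is Pearson's, given as a description over 6 libraries that share 3 time points, with no test. The 10 units did not all follow their mean as closely. Against the mean of the other members, r was 0.595 for pdc101, 0.666 for gpd3 and 0.9998 for eno101, the lowest values and the highest. The half-life scores of rpl13, srs1, tef5 and rtn1 ranked at the 99.8, 97.6, 97.2 and 87.9 percentiles. The gene rpl13 encodes a ribosomal protein and rtn1 a reticulon. For rpl13 the normalised CPM were 637 and 81.7 at 0 h, 490 and 339 at 2.5 h, and 403 and 480 at 4.5 h. For rtn1, with the same shape over a narrower range, they were 745 and 556 at 0 h, 713 and 670 at 2.5 h, and 692 and 705 at 4.5 h.

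Antisense units overlapped 8 of the 10 units, and gpd3 and adh1 had none. There were 12 of them, 10 of the authors' class of newly annotated noncoding units, and SPAC26F1.08c and opy1, coding neighbours that overlap the ends of the gpm1 and tpi1 units by 184 and 88 bases. Of these, TU.6650 over tpi1 and TU.0028 and TU.0029 over pdc101 had too few counts to be tested. At 2.5 h none of the 9 tested was called by edgeR, the unadjusted p of 1 was under 0.05, and DESeq2 called TU.1497. At 4.5 h TU.1497 was called higher by edgeR. TU.1497 (I:5170957-5171680, plus strand) lies inside the gpm1 unit but outside the coding sequence of gpm1 (I:5173972-5174607). It had 5.86 and 3.28 normalised CPM at 4.5 h, against 0.868 and 1.68 at 0 h (log2 1.81, SE 0.44, adjusted p = 0.0401), and these groups did not overlap. This is 1 of 9 units, beside 17.9% of all tested units called in either direction. With 1 library left out, its log2 fold change ranged from 1.33 to 2.39. The call was lost without any of the 4 treated libraries, in fits that also called a smaller share of all units. It was also lost with library totals (adjusted p = 0.0538, edgeR), with only the 2 time points compared (0.0939) and with scaling on long-lived units (0.452). Without 0 h replicate 1, the median log2 fold change of 11 tested antisense units was 1.84 at 2.5 h and 1.91 at 4.5 h. Without 0 h replicate 2, the medians were -0.07 and -0.03. With all 6 libraries, none of the 9 tested was called between 4.5 h and 2.5 h by edgeR or DESeq2. In that comparison 1 had an unadjusted p under 0.05 by edgeR.

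The other noncoding antisense units inside the units of these genes also had low counts and, like their sense partners, were higher in 0 h replicate 1. The log2 gap between the 0 h libraries was 3.15 for TU.5953 (opposite tdh1), 2.53 for TU.1498 (gpm1), 2.44 for TU.5787 (eno101), 2.28 for TU.1097 (pyk1), 2.18 for TU.5639 (fba1) and 2.11 for TU.2800 (pgk1). There were 0.290 and 0.279 TU.5953 counts per 100 tdh1 counts at 0 h, 0.319 and 0.416 at 2.5 h, and 0.364 and 0.277 at 4.5 h. For TU.5787 there were 0.114 and 0.174 counts per 100 eno101 counts at 0 h, 0.146 and 0.151 at 2.5 h, and 0.158 and 0.142 at 4.5 h. The strand setting of the counting is not given in the sources used here, and whether such reads are antisense RNA or sense reads placed on the wrong strand was not tested. TU.1497, SPAC26F1.08c and opy1 had 0 h gaps of -0.95, -0.41 and -0.38.

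Genes of the routes around the pathway were read from 7 lists. Of 49 such genes, 42 had a tested unit, and 1 of these was called higher and 3 lower at 2.5 h, 2 higher and 3 lower at 4.5 h, and 0 higher and 2 lower between 4.5 h and 2.5 h. In either direction these are 4, 5 and 2 units of 42, beside 17.4%, 17.9% and 10.3% of all tested units. Without 0 h replicate 1 the counts of the 42 were 23 at 2.5 h and 22 at 4.5 h, beside 42% and 41.5% of all units, and without 0 h replicate 2 they were 20 and 23, beside 41% and 40.4%. DESeq2 called 5, 7 and 4 of the 42. With all 6 libraries none of the 4 upper glycolysis units was called in any comparison by edgeR or DESeq2, nor did any have an unadjusted p under 0.05 by edgeR. They are hxk1 and hxk2 (hexokinases), pgi1 (glucose-6-phosphate isomerase) and pfk1 (phosphofructokinase), and their median log2 fold change was -0.08 at 2.5 h and -0.31 at 4.5 h. With 0 h replicate 2 alone as the baseline, 3 and 2 of them were called higher at 2.5 h and 4.5 h (medians 0.62 and 0.45). With 0 h replicate 1 alone, 3 and 4 were called lower (medians -0.60 and -0.79). Fitted on only the 2 time points compared, 1 was called lower between 4.5 h and 2.5 h, beside 38.8% of all units called in either direction. The median 0 h gap was 1.32 for these 4 units and 1.13 for the pyruvate dehydrogenase units. It was 0.70 for the citrate cycle, 0.49 for the pentose phosphate pathway, 0.06 for the side enzymes of fermentation, -0.25 for glycerol metabolism and gluconeogenesis and -0.45 for trehalose metabolism, beside 2.50 for the 10 enzymes.

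In fermentation the mitochondrial alcohol dehydrogenase adh4 fell late. It had 88.6 and 89.0 normalised CPM at 4.5 h, against 289 and 239 at 0 h (log2 -1.57, SE 0.16, adjusted p = 0.00489, edgeR) and against 207 and 230 at 2.5 h (log2 -1.30, adjusted p = 0.0175). The 4.5 h libraries lay below the others. With both 0 h libraries in the fit, adh1 was not called at any time by edgeR. No unit was matched for eno102, pdc102, pdc201 and pdc202, relatives of eno101 and pdc101 that are not analysed here.

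In glycerol metabolism gpd1 was called higher at 4.5 h, and gut2 was called higher at both times. The gene gpd1 encodes the glycerol-3-phosphate dehydrogenase that makes glycerol 3-phosphate and, like adh1, gives back NAD+. It had 3917 and 3876 normalised CPM at 4.5 h, against 1569 and 1696 at 0 h (log2 1.26, SE 0.19, adjusted p = 0.0114, edgeR). At 2.5 h it had 2247 and 2624, also above both 0 h values, and was not called by edgeR. Mitochondrial glycerol-3-phosphate dehydrogenase (gut2) had 99.9 and 108 normalised CPM at 2.5 h, against 32.6 and 47.0 at 0 h (log2 1.39, SE 0.21, adjusted p = 0.0106), and 67.6 and 74.8 at 4.5 h (log2 0.84, adjusted p = 0.0421). Glycerol dehydrogenase (gld1) fell at 4.5 h, where it had 30.0 and 29.2 normalised CPM, against 42.9 and 56.5 at 0 h (log2 -0.75, adjusted p = 0.04) and against 62.5 and 68.0 at 2.5 h (log2 -1.14, adjusted p = 0.0277). These groups did not overlap in any of the 3 genes.

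In mitochondria, which take up pyruvate for respiration, pdx1, a subunit of the pyruvate dehydrogenase complex, fell at both times. It had 29.7 and 33.2 normalised CPM at 2.5 h and 38.3 and 26.3 at 4.5 h, against 81.4 and 55.8 at 0 h (log2 -1.12, adjusted p = 0.0355 at 2.5 h, and -1.09, adjusted p = 0.0395 at 4.5 h, edgeR). All 5 pyruvate dehydrogenase units had negative log2 fold changes at both times, with medians of -0.57 and -0.44, when both 0 h libraries were used. Of the 5, 3 were negative at 2.5 h and 2 at 4.5 h against 0 h replicate 2 alone (medians -0.058 and 0.074). Against 0 h replicate 1 alone all 5 were negative at both times (medians -1.01 and -0.87). The trehalose list gave ntp1, which encodes neutral trehalase and was called lower at 2.5 h. It had 898 and 841 normalised CPM at 2.5 h, against 1317 and 1795 at 0 h (log2 -0.84, adjusted p = 0.0406, edgeR). At 4.5 h it had 928 and 1043, also below both 0 h values, and was not called by edgeR. With all 6 libraries none of the 7 pentose phosphate units was called by edgeR or DESeq2, and at most 1 had an unadjusted p under 0.05 by edgeR in a comparison. Without 0 h replicate 1, the median log2 fold change of the 7 was 0.19 at 2.5 h and -0.07 at 4.5 h. Without 0 h replicate 2, it was -0.20 and -0.21. Fitted on only the 2 time points compared, 4 of the 7 were called between 4.5 h and 2.5 h, beside 38.8% of all units. With 1 library left out, each change named in these lists kept its sign. The log2 fold change ranged from 1.04 to 1.67 for gut2 at 2.5 h and from 0.49 to 1.14 at 4.5 h. For gpd1 and adh4 at 4.5 h it ranged from 1.09 to 1.32 and from -1.69 to -1.54. It ranged from -1.38 to -0.94 for pdx1 at 2.5 h and from -1.39 to -0.84 at 4.5 h. For gld1 at 4.5 h it ranged from -1.04 to -0.53, and for ntp1 at 2.5 h from -1.15 to -0.61. Between 4.5 h and 2.5 h it ranged from -1.37 to -1.22 for adh4 and from -1.20 to -1.08 for gld1. Each of these calls was lost in 2 or 4 of the 6 fits, always without a treated library. Those fits called fewer of all units, and fits without a 0 h library called more. Calls held or lost in them thus cannot be read as particular to these genes.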

How the data were processed

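Per the labels' protocols, newly made RNA was marked with 4-thiouracil and purified, and sequencing libraries were prepared with a NuGen Ovation kit. Each deposited file gives raw read counts per transcription unit for 1 library. The submitters' processing notes name STAR 2.3.0, SAMtools and the assembly ASM294v2. The sources used here do not name the program that counted reads, its use of strand or its handling of reads matching more than 1 place. The authors' deposited table of units adds coordinates, classes and kinetic scores (half-life and synthesis time, with no time unit).

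Members were matched by systematic identifier to RefSeq gene names. The members, the lists of related genes, the motifs and the tests were chosen with earlier results of these data known. All members are named, as are the antisense units over them, up to 4 related genes per list and comparison that passed the test, and the 5 coding units most like the members' mean, except for a few units that are not reported here.

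Counts entered edgeR 4.0.16 (R 4.3.3) with filterByExpr grouped by time point, TMM scaling and 1 robust quasi-likelihood fit to all 6 libraries, which leaves 3 residual degrees of freedom. Benjamini-Hochberg adjustment ran over 5208 units at a threshold of 0.05, two-sided. All adjusted p come from this test unless DESeq2 is named. The steps were tested on simulated data with the same spread at every time point. That test does not bear on how the fits handle the wider gap between the 0 h libraries. Alternatives were DESeq2 1.42.0, its size factors, library totals, no filter, only the 2 time points compared, the replicate block and each library left out. Scaling on 451 long-lived units was added after seeing the data. Replicates were kept as separate samples, since their counts differed beyond sampling noise (at 4.5 h, where they were closest, the chi-square per unit was 23.7). Depth was 11525663 to 35673601 counts per library, and 3 counts in the shallowest library, taken as the limit for a count of 0, are 0.26 CPM.

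Promoters and coding sequences were read from RefSeq ASM294v3 by its own annotation. Against it, 4902 of 4912 deposited introns (99.8%) had the splice site bases GT or GC and AG, and 5028 of 5062 gene identifiers were found, each overlapping its unit. Figures and descriptions were made in Python 3.11.15 with pandas 2.3.3, scipy 1.17.1 and matplotlib 3.10.9.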

Additional observations from a re-analysis of the deposited data

How the results depend on the processing

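The labels do not say that a replicate number marks a shared culture, and there are only 2 numbers. The differences between replicates correlated between time points at 0.46 (0 h and 2.5 h), 0.21 (0 h and 4.5 h) and 0.10 (2.5 h and 4.5 h) over 5208 units. With the replicate block the fit called 700 units higher and 277 lower at 2.5 h, 622 and 450 at 4.5 h, and 186 and 403 between 4.5 h and 2.5 h, and the number of the 10 enzyme units called stayed at 1, 0 and 0. The block turned the sign of uncalled values, which became 0.23 for tdh1 between 4.5 h and 2.5 h, 0.24 and 0.44 for adh1 at 2.5 h and 4.5 h, and 0.20 for TU.2800 at 2.5 h.

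On only the 2 time points compared, edgeR called 8.01% of all units at 2.5 h, 7.02% at 4.5 h and 38.8% between 4.5 h and 2.5 h. Of the 10 enzyme units, it then called 0 at 2.5 h and 2 between 4.5 h and 2.5 h. Beside 23.8% of all units, DESeq2 called 2 of the 10 enzyme units at 4.5 h. With 1 library left out, 0 to 9 were called at 2.5 h, 0 to 9 at 4.5 h and 0 to 2 between 4.5 h and 2.5 h, the 9 without 0 h replicate 1. Of the 42 related units (4, 5 and 2 called in the report's fit), only 2 time points gave 1, 2 and 18, beside the shares above. Library totals gave 3 at 4.5 h, beside 15.6% of all units, and DESeq2 gave 4 between 4.5 h and 2.5 h, beside 17.7%. Scaling on long-lived units, an alternative added after seeing the data, called 3.28%, 2.65% and 0.461% of all units. It called 0 of the 42 in each comparison. With 1 library left out these counts ran from 0 to 23, 0 to 23 and 0 to 18. Over all units, leaving out a treated library lowered the share called in each comparison, and leaving out a 0 h library raised it. With all 6 libraries, TMM gave 642 of all units higher and 266 lower at 2.5 h, 526 and 406 at 4.5 h, and 174 and 360 between 4.5 h and 2.5 h. DESeq2 size factors gave 581 and 321, 453 and 472, and 119 and 313, and library totals 540 and 188, 381 and 432, and 42 and 286. Scaling on long-lived units gave 155 and 16, 82 and 56, and 0 and 24, and a median of all units of -0.15 at 4.5 h, against 0.017 with TMM. The causes were not tested.

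The log2 fold changes whose sign turned were uncalled with all 6 libraries and TMM. Without 0 h replicate 1, the turned values of pgk1 at 2.5 h and of pyk1 and adh1 at 2.5 h and 4.5 h were called higher. With library totals they became -0.041 for eno101 and -0.038 for TU.5787 between 4.5 h and 2.5 h, and 0.026 for TU.2800 at 2.5 h. With scaling on long-lived units they became 0.051 for pgk1, 0.061 for pyk1, 0.38 for adh1 and 0.41 for TU.2800 at 2.5 h, 0.35 for adh1 at 4.5 h, and -0.10 for eno101, -0.083 for tpi1, -0.031 for adh1 and -0.10 for TU.5787 between 4.5 h and 2.5 h. With 1 library left out, the log2 fold changes that turned ranged at 2.5 h from -0.58 to 2.06 (fba1), -0.36 to 2.63 (tdh1), -1.05 to 0.88 (pgk1), -0.70 to 2.25 (eno101), -1.19 to 1.30 (pyk1), -0.15 to 1.59 (tpi1), -1.03 to 2.07 (adh1), -1.68 to 0.63 (pdc101), -0.041 to 2.04 (TU.5639), -0.084 to 2.96 (TU.5953), -0.75 to 1.26 (TU.2800), -0.048 to 0.46 (SPAC26F1.08c), -0.0063 to 2.40 (TU.1498), -0.31 to 2.02 (TU.5787), -0.34 to 1.84 (TU.1097) and -0.060 to 0.42 (opy1). At 4.5 h they ranged from -0.29 to 2.35 (fba1), -0.43 to 2.55 (tdh1), -0.30 to 1.62 (pgk1), -0.66 to 2.28 (eno101), -1.49 to 0.99 (pyk1), -0.052 to 1.67 (tpi1), -0.91 to 2.17 (adh1), -1.99 to 0.30 (pdc101), -0.31 to 2.72 (TU.5953), -0.083 to 1.91 (TU.2800), -0.27 to 2.05 (TU.5787) and -0.56 to 1.61 (TU.1097). Between 4.5 h and 2.5 h they ranged from -0.54 to 0.58 (tdh1), -0.18 to 0.28 (eno101), -0.036 to 0.21 (tpi1), -0.086 to 0.32 (adh1), -0.55 to 0.18 (TU.5953), -0.12 to 0.72 (TU.1497), -0.16 to 0.26 (TU.5787) and -0.57 to 0.16 (TU.1097).

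With 1 library per time point the share of counts taken by the 10 units ran from 1.12% to 5.90% at 0 h, 3.04% to 4.50% at 2.5 h and 3.34% to 4.14% at 4.5 h.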
